A study of Mus musculus with 18 samples.

Results

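The enzymes described here are the cytochrome P450 proteins of the Cyp2a, Cyp2c, Cyp2d, Cyp2j and Cyp3a subfamilies. Every protein-coding gene whose symbol is 1 of these stems followed only by a number was taken, which gave 42 of the 54532 genes in the table. They are 4 Cyp2a, 15 Cyp2c, 8 Cyp2d, 8 Cyp2j and 7 Cyp3a genes, and symbols that end in a letter, such as Cyp3a41a, were left out. Their RNA was measured in the liver of 18 male C57BL/6J mice (C57BL/6 in the labels), 6 in each of 3 groups, which were 6 weeks old at the start and were fasted overnight before the tissue was taken. Normal control (NC) mice ate a standard chow and received no SZ-A. HFD control mice ate a high-fat diet for 14 weeks and were then given saline. SZ-A mice ate the same diet for 14 weeks and were then given SZ-A, an alkaloid extract of mulberry twig (Ramulus Mori), and the high-fat diet went on in both groups meanwhile. Treatment lasted 8 weeks in the deposited design and 6 weeks in the study's methods, and the dose and route for the sequenced mice are not given in the sources used here. One mouse, NC6, is titled as a chow mouse while its diet label reads high-fat, so counts are given with and without it.

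Cytochromes P450 are haem enzymes of the endoplasmic reticulum that insert an oxygen atom into steroids, fatty acids, bile acids, drugs and toxins, using electrons passed on by the reductase Por and in part by cytochrome b5. The Cyp2 and Cyp3a subfamilies are the main drug-metabolising P450s of the liver, and in the mouse each has multiplied into a cluster of neighbouring and very similar genes. Many are switched on by the nuclear receptors PXR (Nr1i2) and CAR (Nr1i3) when these meet foreign compounds, and several differ between male and female liver under the pattern of growth hormone release.

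Values are FPKM, the fragments of a gene per kilobase of its length, scaled to library size. Comparisons between genes rest on the gene length used, and those between mice on the scaling. The FPKM of a mouse summed to 353946 in HFD1, the lowest, and to 489187 in NC5, the highest. The 18 libraries held 17163191 to 20493907 fragments on genes. Of the 42 genes, 38 had at least 1 fragment in a mouse, and Cyp2c66, Cyp2j7, Cyp2j12 and Cyp2j13 had none. Differences were tested with limma for the 10216 genes with a mean of at least 1 FPKM over all mice, which held 26 of the 42. Genes with a fold change over 1.2 were called when their p-value, adjusted over all these genes by Benjamini and Hochberg's method, was under 0.05. The lowest member tested was Cyp2c40 at a mean of 1.09 FPKM, and the highest left out were Cyp2j9 at 0.756 and Cyp2c69 at 0.738. Nothing in the labels names the mice's cages or litters, so p-values measure the spread between these mice. In whole liver, fewer cells of a type and less RNA per cell cannot be told apart.

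The 42 genes ranged over the whole scale of expression. A mean of at least 100 FPKM was reached by 13 of them, as by 476 of the 22046 protein-coding genes of the table. Cyp2d9 led with a mean of 584 FPKM over all mice, followed by Cyp2d26 at 535 and Cyp2d10 at 469. Together the 42 genes took 1.12% ± 0.129 (SD, n = 6) of all fragments in NC mice, 0.982% ± 0.0684 in HFD mice and 0.987% ± 0.180 in SZ-A mice. The make-up behind these totals differed between the groups. Summed FPKM of the Cyp3a genes was 962 ± 121 in NC mice, 472 ± 88.6 in HFD mice and 400.2 ± 129 in SZ-A mice. The Cyp2a sum went the other way, with 222 ± 66.6 in NC mice, 510.3 ± 97.6 in HFD mice and 473 ± 163 in SZ-A mice. By FPKM the leading gene of a subfamily also changed: Cyp2a12 led the Cyp2a genes in NC mice and Cyp2a5 in the others, Cyp2d9 gave way to Cyp2d26, and Cyp3a11 to Cyp3a25. The Cyp2d and Cyp3a changes rest on the gene lengths used, such as 5093 bases for Cyp3a11 and 2083 for Cyp3a25. In fragments, Cyp3a11 still led Cyp3a25 in HFD mice (116453 against 49546) and SZ-A mice (76763 against 41772). Cyp2d9 likewise led Cyp2d26 (145056 against 119665 in HFD and 164396 against 112491 in SZ-A mice). No test was made on the sums or on the order of the genes.

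**Figure D1:**
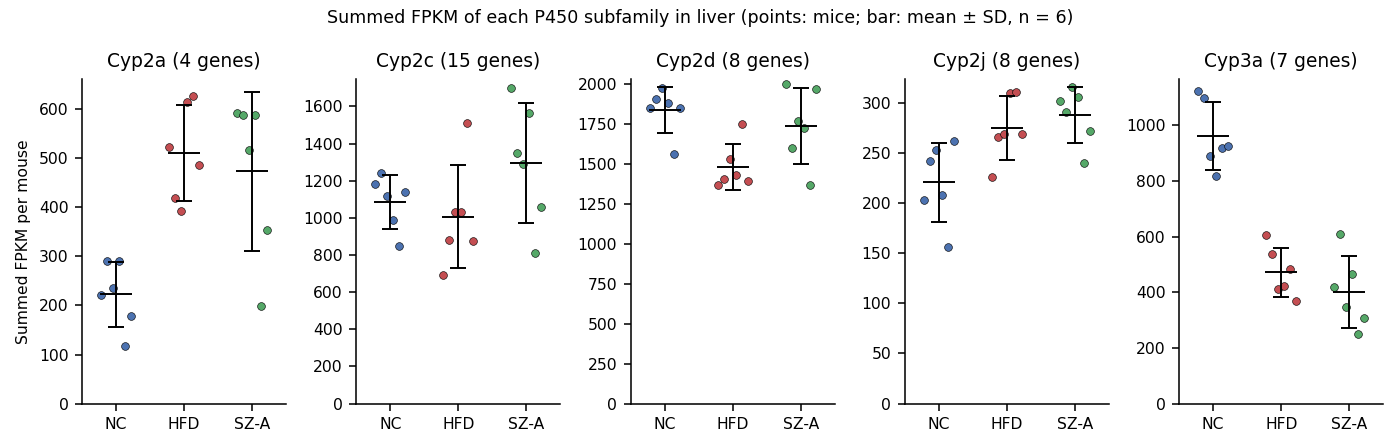
Summed FPKM of each subfamily (vertical axes, starting at 0) in each mouse, by group. Points are mice and bars the mean ± SD of 6 mice. The 6 HFD mice lie between 369 and 605 FPKM for Cyp3a, all below the lowest NC mouse at 818, and between 392 and 627 for Cyp2a, all above the highest NC mouse at 291.

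**Figure D2:**
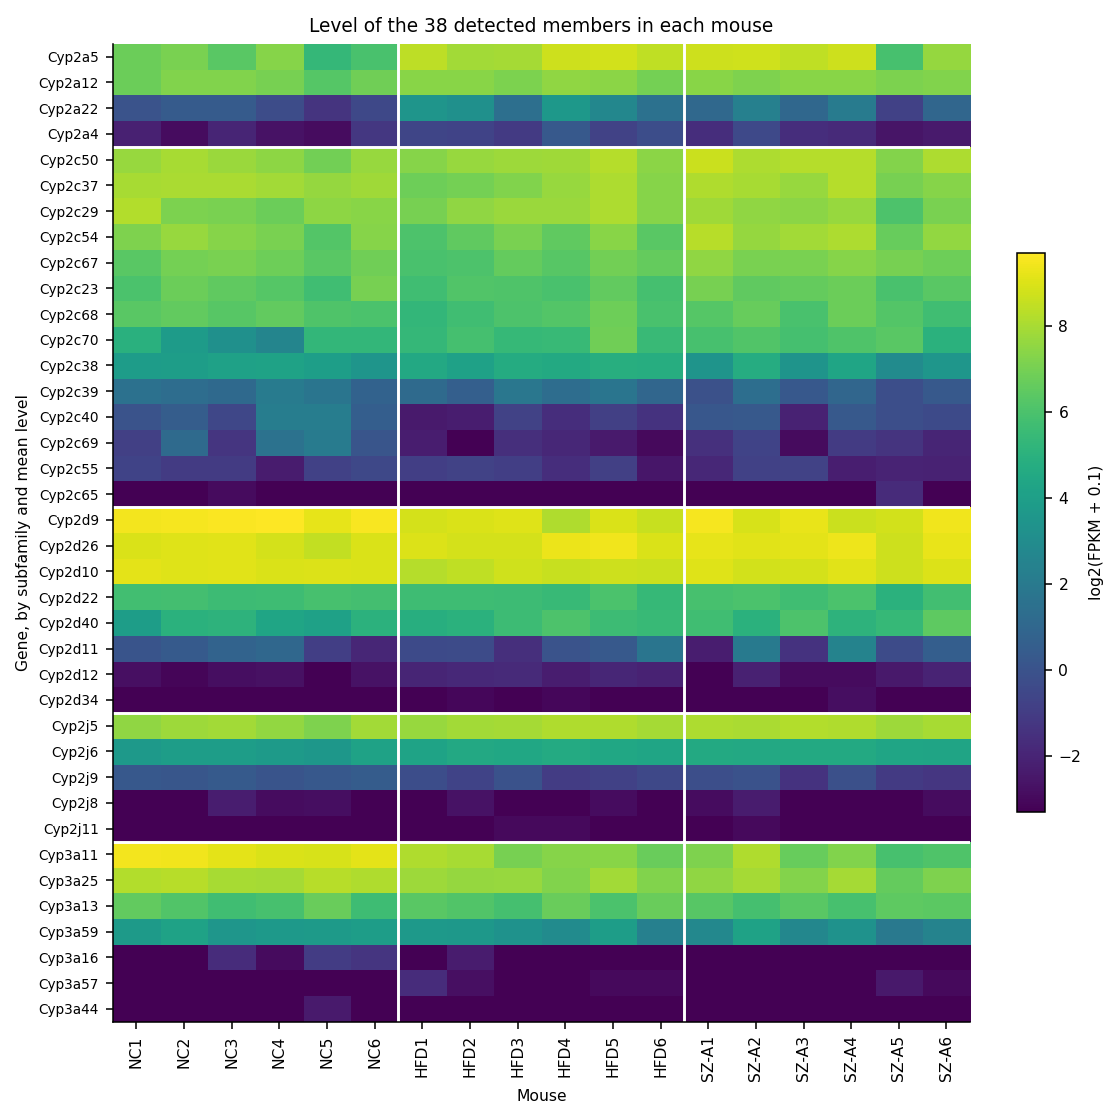
Level of the 38 detected genes (rows, by subfamily and mean) in each of the 18 mice (columns), as log2(FPKM + 0.1) on the colour scale. White lines part the groups and subfamilies; the Cyp2d9, Cyp2d26 and Cyp2d10 rows are the brightest, and the Cyp3a11 row is brightest in the NC mice.

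Because the genes of a cluster are so alike, how far a fragment can be assigned to 1 of them was examined on the GENCODE transcripts of the build of the files (GRCm38). Of the 42 genes, 19 had at least 1 stretch of 150 bases that also occurs in another Cyp gene. The share of such stretches was 29.1% of the Cyp2c40 transcript, 22.5% of Cyp2c69 and 13.0% of Cyp2c67. It was 5.79% for Cyp2a5, 3.46% for Cyp2a22 and 0% for Cyp3a11, Cyp2c70 and Cyp2j6. The treatment of fragments that fit several genes is not given in the sources used here, so values of genes with shared stretches are uncertain. These shares do not give the size of the error, which also depends on the level of the gene shared with. Cyp2a22, at a mean of 3.61 FPKM, shares more stretches with Cyp2a12, at 147, than with any other Cyp gene. The closest pair was Cyp2a5 and Cyp2a4, whose coding sequences were 98.4% identical, with 23 differences in 1482 bases. The 60 coding bases within 1 exon where they differ most (exon 2, at chr7:26835811-26835870 for Cyp2a5 and chr7:26307666-26307725 for Cyp2a4, GRCm38, plus strand) are shown to let the pair be seen side by side, with the 3 differing bases in capitals.
Cyp2a5: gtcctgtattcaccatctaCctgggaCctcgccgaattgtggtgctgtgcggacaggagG
Cyp2a4: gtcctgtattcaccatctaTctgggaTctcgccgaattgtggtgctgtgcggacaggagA

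Between HFD and NC mice, the comparison of the diets, 6 of the 26 genes tested were called higher in HFD mice and 6 lower. Over all genes tested, 10.7% were called higher and 9.49% lower. Cyp2a22 passed the filter on low values only through the mice on the high-fat diet and Cyp2c40 only through NC mice. Among the 24 members with a mean of at least 1 FPKM in both groups, 5 were higher and 5 lower. Without NC6 the counts over all tested members were 6 and 5, Cyp2c37 being the one no longer called. When each mouse's FPKM were scaled to the same sum, the median log2 fold change of all genes moved from -0.03 to 0.16, the calls over all genes from 1092 higher and 970 lower to 2128 and 334, and those of the members to 8 higher and 5 lower. Among the falls the lowest adjusted p was that of Cyp3a11, and among the rises that of Cyp2a22.

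Cyp3a11 encodes the most abundant P450 of its subfamily in mouse liver, a counterpart of human CYP3A4 and a standard target of PXR. Its lowest, median and highest FPKM were 478, 572 and 723 in NC mice, 105, 164 and 286 in HFD mice and 60.1, 123 and 282 in SZ-A mice. Every mouse on the high-fat diet, with or without SZ-A, lay below every NC mouse. HFD mice had 3.35-fold less than NC mice, a log2 fold change of -1.74 ± 0.22 (SE, adjusted p = 0.000242). In SZ-A against NC mice the change was -2.31 ± 0.31 (adjusted p = 0.00149). These 2 comparisons share the NC mice and are given side by side only.

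Cyp3a25, a steroid and drug hydroxylase of the same cluster, showed a smaller difference of the same sign. NC mice held 252 to 319 FPKM (median 287), HFD mice 149 to 235 (median 205) and SZ-A mice 98.0 to 252 (median 173). The NC group did not overlap with either of the others, although its lowest mouse and the highest SZ-A mouse both rounded to 252. The log2 fold change was -0.57 ± 0.13 in HFD (adjusted p = 0.0063) and -0.73 ± 0.20 in SZ-A mice (adjusted p = 0.0348), each against NC. The second of these calls was lost in 8 of the 12 fits that leave out a mouse (NC1, NC2, NC3, NC5, NC6, SZ-A1, SZ-A3 or SZ-A6), at adjusted p of 0.0529 to 0.0788. Cyp3a59, which is 97.5% identical to Cyp3a25 in its coding sequence, had means of 14.1 FPKM in NC mice, 10.5 in HFD mice and 8.37 in SZ-A mice, and neither comparison with NC was called (adjusted p = 0.136 and 0.0637). Cyp3a13, known from gut as well as liver, lay at 73.2 ± 23.6, 81.9 ± 20.5 and 75.6 ± 13.3 FPKM (SD, n = 6). Its log2 fold change in HFD against NC was 0.18 (95% interval -0.27 to 0.64), in the other direction from its relatives. The remaining Cyp3a16, Cyp3a44 and Cyp3a57 had at most 11 fragments in a mouse and were not tested.

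The bases before the start sites of Cyp3a11 and Cyp3a25 are shown because these genes fell together. Sequences are those of RefSeq (GRCm38.p6), 150 bases ending just before the start site and read along the gene's strand. Capitals mark the letters TATAAA (the TATA box core), GTTAAT (a core of the HNF1 site) and CAAAGTCC (a core of the HNF4 site), on either strand, and no marked stretch overlaps another. Promoters matched 36 of the 42 genes by symbol or gene ID, and Cyp2c23, Cyp2c54, Cyp2d12, Cyp2d22, Cyp2d34 and Cyp2j7 were not matched. The Cyp3a11 stretch is chr5:145879855-145880004 and the Cyp3a25 stretch chr5:146009619-146009768, both on the minus strand, and the RefSeq start of Cyp3a11 lies 110 bases from the gene end given in the table.
Cyp3a11: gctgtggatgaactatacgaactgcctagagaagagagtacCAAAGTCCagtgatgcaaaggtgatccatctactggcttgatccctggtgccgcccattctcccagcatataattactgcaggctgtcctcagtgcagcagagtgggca
Cyp3a25: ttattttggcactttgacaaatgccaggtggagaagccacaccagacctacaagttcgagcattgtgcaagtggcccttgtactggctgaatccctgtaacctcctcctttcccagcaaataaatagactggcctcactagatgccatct

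Over the full windows of 250 bases before to 50 after the start, CAAAGTCC was present in 11 of the 36 members (30.6%) and in 1.42% of all 32851 promoters. TATAAA was present in 23 members (63.9%) and in 13.6% of all promoters, and GTTAAT in 6 members (16.7%) and in 7.1% of all. Neighbouring members have similar promoters, 95.7% identical for Cyp3a25 and Cyp3a59 and 97.7% for Cyp2a5 and Cyp2a4, so the members are not separate observations. A match of these letters describes the sequence and does not show that a factor binds there.

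Cyp2a5, the coumarin and nicotine hydroxylase of mouse liver, was higher on the high-fat diet. Its lowest, median and highest FPKM were 40.2, 95.2 and 160 in NC, 243, 349 and 445 in HFD and 59.8, 382 and 437 in SZ-A mice. HFD and NC mice did not overlap, while in the SZ-A group the mouse SZ-A5 fell within the NC range and the other 5 did not. The log2 fold change of HFD against NC was 1.91 ± 0.30 (3.75-fold, adjusted p = 0.000917). For SZ-A against NC it was 1.56 ± 0.48 and was not called (adjusted p = 0.0603). Without SZ-A5 it was 1.98 with an adjusted p of 0.00346. Of 23 alternative fits 5 called it, and adjusted p ran up to 0.185.

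Cyp2a22, whose closest relative is Cyp2a12 (97.0% identical in coding sequence), had a far lower level and a larger change. NC mice held 0.287 to 1.23 FPKM (median 0.812), HFD mice 2.62 to 12.4 (median 7.86) and SZ-A mice 0.482 to 5.06 (median 1.97). All HFD mice were above all NC mice, and SZ-A mice overlapped with both. It was 7.44-fold higher in HFD than in NC mice (log2 fold change 2.90 ± 0.42, adjusted p = 0.00059). In SZ-A against HFD mice the change was -1.55 ± 0.53, which did not pass (adjusted p = 0.2). Cyp2a12, a steroid and bile acid hydroxylase, had means of 123 ± 27.7, 160 ± 22.0 and 157 ± 12.3 FPKM in NC, HFD and SZ-A mice and was not called against NC (adjusted p = 0.0825 and 0.116). Cyp2a4, a steroid hydroxylase of female liver, stayed under the filter, with means of 0.125, 0.638 and 0.239 FPKM and between 1 and 39 fragments in a mouse.

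Upstream of the start, Cyp2a5 (chr7:26835189-26835338, plus strand) and Cyp2a22 (chr7:26939387-26939536, minus strand), the 2 members that rose most, read as follows, from the same source and with the same marks. Both hold TATAAA near the start site, and Cyp2a5 alone holds CAAAGTCC.
Cyp2a5: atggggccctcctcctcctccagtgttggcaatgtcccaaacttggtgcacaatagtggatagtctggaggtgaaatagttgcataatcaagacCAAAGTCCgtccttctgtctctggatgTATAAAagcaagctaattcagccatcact
Cyp2a22: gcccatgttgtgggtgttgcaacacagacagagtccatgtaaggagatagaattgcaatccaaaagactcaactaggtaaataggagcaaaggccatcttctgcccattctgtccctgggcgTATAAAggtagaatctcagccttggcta

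**Figure D3:**
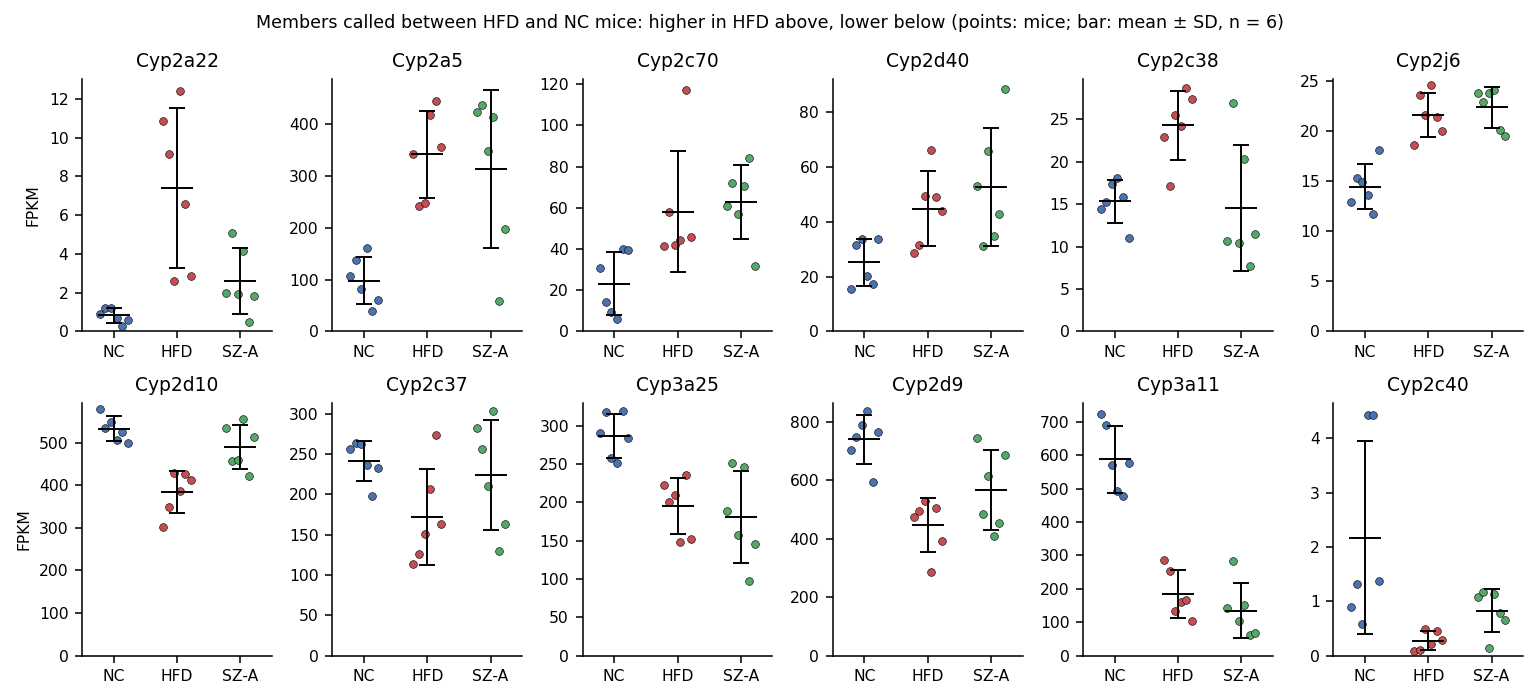
FPKM (vertical axes, starting at 0) in each mouse of the 12 members called between HFD and NC mice, those higher in HFD above and those lower below, each in order of fold change. Points are mice and bars the mean ± SD of 6 mice. In the Cyp3a11 panel all NC mice lie at or above 478 FPKM and all others at or under 286, and in the Cyp2a5 panel the lone low SZ-A point is SZ-A5 at 59.8.

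The Cyp2c genes form the largest of the 5 subfamilies and include epoxygenases of arachidonic and linoleic acid. Of the 11 tested between HFD and NC mice, 2 rose and 2 fell. Cyp2c70 makes the muricholic acids that set mouse bile acids apart from human ones. Its median was 22.5 FPKM in NC mice (5.91 to 39.8), 45.2 in HFD mice (41.6 to 117) and 65.6 in SZ-A mice (31.5 to 84.0). The HFD mice were all above the NC mice, by a narrow margin between NC5 and HFD1, and the highest HFD value was that of HFD5. Against NC mice, the log2 fold change was 1.55 ± 0.46 in HFD (adjusted p = 0.0305) and 1.70 ± 0.45 in SZ-A mice (adjusted p = 0.0311). Without HFD5 the first was 1.32 and was not called (adjusted p = 0.0573), and the call was also lost without NC2, NC3, NC4 or HFD2 (up to 0.0654). The second was lost without NC2, NC3, SZ-A1, SZ-A2, SZ-A3 or SZ-A4 (0.0571 to 0.0659).

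Cyp2c38 was at 15.3 ± 2.5 FPKM in NC mice, 24.3 ± 4.08 in HFD mice and 14.6 ± 7.41 in SZ-A mice. It was higher in HFD than in NC mice by 0.66 ± 0.14 on the log2 scale (adjusted p = 0.00503), with HFD2 alone inside the NC range. Its neighbour Cyp2c39, 94.2% identical, was lower in SZ-A than in NC mice, with means of 1.37 against 2.75 FPKM and a log2 fold change of -1.0 ± 0.28 (adjusted p = 0.0404). This call was lost in 9 of the 12 fits that leave out a mouse, at adjusted p of 0.0534 to 0.0853, and held only without NC6, SZ-A2 or SZ-A4. Cyp2c37 fell in HFD mice by 0.55 ± 0.18 on the log2 scale (adjusted p = 0.0494), a call that was likewise lost in 9 of the 12 fits, at adjusted p of 0.0679 to 0.105, and held only without NC5, HFD4 or HFD5. The groups overlapped, with 199 to 264 FPKM in NC and 113 to 273 in HFD mice.

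Cyp2c40, a hydroxylase of arachidonic acid, was the weakest of the called members. NC mice had a median of 1.35 FPKM (0.588 to 4.44), HFD mice of 0.251 (0.0929 to 0.497) and SZ-A mice of 0.931 (0.134 to 1.16). All HFD mice were below all NC mice, and NC4 and NC5 stood above the other NC mice. The log2 fold change of HFD against NC was -2.36 ± 0.49 (adjusted p = 0.00457), from 4 to 183 fragments in a mouse. Cyp2c69, whose coding sequence is 97.7% identical to Cyp2c67 and 92.4% to Cyp2c40, and which shares more of its stretches of 150 bases with Cyp2c40 than with any other Cyp gene, was not tested and ran from 0.307 to 4.19 FPKM in NC and from 0 to 0.241 in HFD mice.

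The most abundant Cyp2c genes were not called in any comparison besides Cyp2c37. Cyp2c50 had means of 198 ± 45.3, 217 ± 51.9 and 285 ± 79.4 FPKM in NC, HFD and SZ-A mice. Cyp2c29, an enzyme induced by phenobarbital, had 172 ± 65.0, 198 ± 51.1 and 166 ± 57.3. For both genes all 3 groups overlapped. Cyp2c55 was detected at up to 23 fragments in a mouse, and Cyp2c65 in 2 mice only.

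The Cyp2d genes, relatives of human CYP2D6, were the most abundant subfamily, and between HFD and NC mice 1 of 6 tested rose and 2 fell. Cyp2d9 is a testosterone hydroxylase typical of male liver. Its median was 756 FPKM in NC mice (595 to 836), 484 in HFD mice (285 to 529) and 549 in SZ-A mice (408 to 744). No HFD mouse reached the NC range, and SZ-A mice overlapped with both groups. The log2 fold change was -0.75 ± 0.15 in HFD against NC (1.68-fold lower, adjusted p = 0.00334) and -0.41 ± 0.15 in SZ-A against NC, the latter not called (adjusted p = 0.102).

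Cyp2d10 fell as well, from 532 ± 29.3 FPKM in NC to 385 ± 49.9 in HFD mice (log2 fold change -0.48 ± 0.10, adjusted p = 0.00374), with 490.4 ± 51.8 in SZ-A mice. Its 6 NC mice spanned 499.6 to 579 FPKM and its HFD mice 303 to 429, without overlap. Cyp2d26, the third of the abundant genes, lay at 483 ± 67.0, 549.7 ± 97.2 and 572 ± 84.4 FPKM and was not called in any comparison. For HFD against NC its 95% interval ran from -0.10 to 0.46 on the log2 scale. Cyp2d22 lay between 50.1 and 54.8 FPKM on average in all 3 groups and was not called either.

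Cyp2d40 rose in both groups on the high-fat diet, from 25.3 ± 8.58 FPKM in NC to 44.8 ± 13.6 in HFD and 52.7 ± 21.6 in SZ-A mice. Its log2 fold change was 0.84 ± 0.25 (adjusted p = 0.0284) and 1.03 ± 0.28 (adjusted p = 0.033), and both groups overlapped with NC. Each call was lost in 6 of the 12 fits without a mouse, in HFD without NC1, NC4, NC5, HFD3, HFD4 or HFD5 (adjusted p = 0.0503 to 0.0622) and in SZ-A without NC1, NC4, NC5, SZ-A1, SZ-A3 or SZ-A6 (0.0549 to 0.0785). With sample weights the HFD call was lost too (adjusted p = 0.0553), and without a filter on low values both were (0.0868 and 0.116). Cyp2d11 was low and uneven, at 0.106 to 5.60 FPKM over all mice, and its interval for HFD against NC, -1.16 to 1.27, was the widest of the Cyp2d genes.

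Cyp2j enzymes epoxidise arachidonic acid, and Cyp2j5, the main liver member, is also known from kidney. Cyp2j5 held 205 ± 37.4 FPKM in NC mice, 253 ± 30.5 in HFD mice and 265 ± 26 in SZ-A mice and was not called against NC (adjusted p = 0.104 and 0.0724). Cyp2j6 varied little between mice and rose in both groups. NC mice held 11.8 to 18.2 FPKM (median 14.3), HFD mice 18.6 to 24.6 (median 21.5) and SZ-A mice 19.6 to 24.1 (median 23.4). No mouse on the high-fat diet fell within the NC range, of which NC6 was the highest value. The log2 fold change was 0.59 ± 0.11 (adjusted p = 0.00205) in HFD and 0.64 ± 0.10 (adjusted p = 0.00309) in SZ-A against NC mice. Cyp2j9 was under the filter, with means of 1.10, 0.595 and 0.569 FPKM.

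SZ-A against HFD mice is the comparison of the treatment itself, and none of the 26 members was called in it. Over all genes, 0.0783% were called higher and 0.0685% lower, and voom, a limma test on the fragments worked back from FPKM, called none of the members either. The study, which used the count-based test DESeq2 at the same cutoffs, reported many more genes for this comparison. The counts given here hold for the test used here. At an unadjusted p under 0.05, 5 members were higher and 3 lower in SZ-A mice, against 8.74% of all genes higher and 6.09% lower. The naming rule covers 5 of those 8 genes, and Cyp2c54, Cyp2c67 and Cyp2c23 were chosen with their values in view. Higher in SZ-A mice were Cyp2c54, Cyp2c67, Cyp2c23, Cyp2c40 and Cyp2d10, and lower were Cyp2a22, Cyp2c38 and Cyp2c39, all by unadjusted p alone. When each mouse's FPKM were brought to 1 sum, the calls over all genes went from 8 higher and 7 lower to 10 and 208, the median of all genes to -0.15, and the members still had none called. Over the 26 members, 16 log2 fold changes were above 0 and 10 below, with a median of 0.08 beside 0.03 over all genes.

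The lowest adjusted p of the members were those of Cyp2c67 and Cyp2c54. Cyp2c67 had a median of 89.3 FPKM in HFD mice (62.4 to 122) and of 137 in SZ-A mice (115 to 187). Only HFD5 reached into the SZ-A range. On the log2 scale the difference was 0.74 ± 0.17 (adjusted p = 0.0961), and without HFD5 it was 0.84 with an adjusted p of 0.0437. Of 23 alternative fits only 2 called it, this one and that with sample weights, and adjusted p ran from 0.0272 to 0.205. Cyp2c54 had a median of 91.1 FPKM in HFD mice (66.6 to 168) and of 218 in SZ-A mice (101 to 320), and the groups overlapped. Its log2 fold change was 1.04 ± 0.28 (adjusted p = 0.117), and without SZ-A5 it was 1.25 with an adjusted p of 0.0438. Again 2 of 23 alternative fits called it, this one and that with sample weights, and adjusted p ran from 0.0248 to 0.251. Cyp2c40 had a log2 fold change of 1.25 ± 0.45 (adjusted p = 0.215). HFD mice enter this comparison and the one with NC from opposite sides, so the signs of the 2 comparisons are not independent of each other.

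For the 5 called members with the largest fold changes between HFD and NC mice, the interval of the treatment's difference bounds its size. Cyp2a22 had a log2 fold change of -1.55 in SZ-A against HFD (95% interval -2.70 to -0.40), and Cyp2c40 had 1.25 (0.28 to 2.22). Both of these intervals, which are not adjusted for the number of genes, leave out 0 on the side of the NC level, and neither gene was called. The 5 genes were picked by a comparison that shares the HFD mice, which by itself favours a difference toward the NC level. No return toward NC can therefore be read from these intervals. Cyp2c40 averaged under 1 FPKM in both groups here, 0.275 in HFD and 0.825 in SZ-A mice, and was tested only through NC mice. Cyp3a11 had -0.56 (-1.34 to 0.21), away from the NC level. Cyp2a5 had -0.35 (-1.28 to 0.58) and Cyp2c70 0.16 (-0.44 to 0.76).

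**Figure D4:**
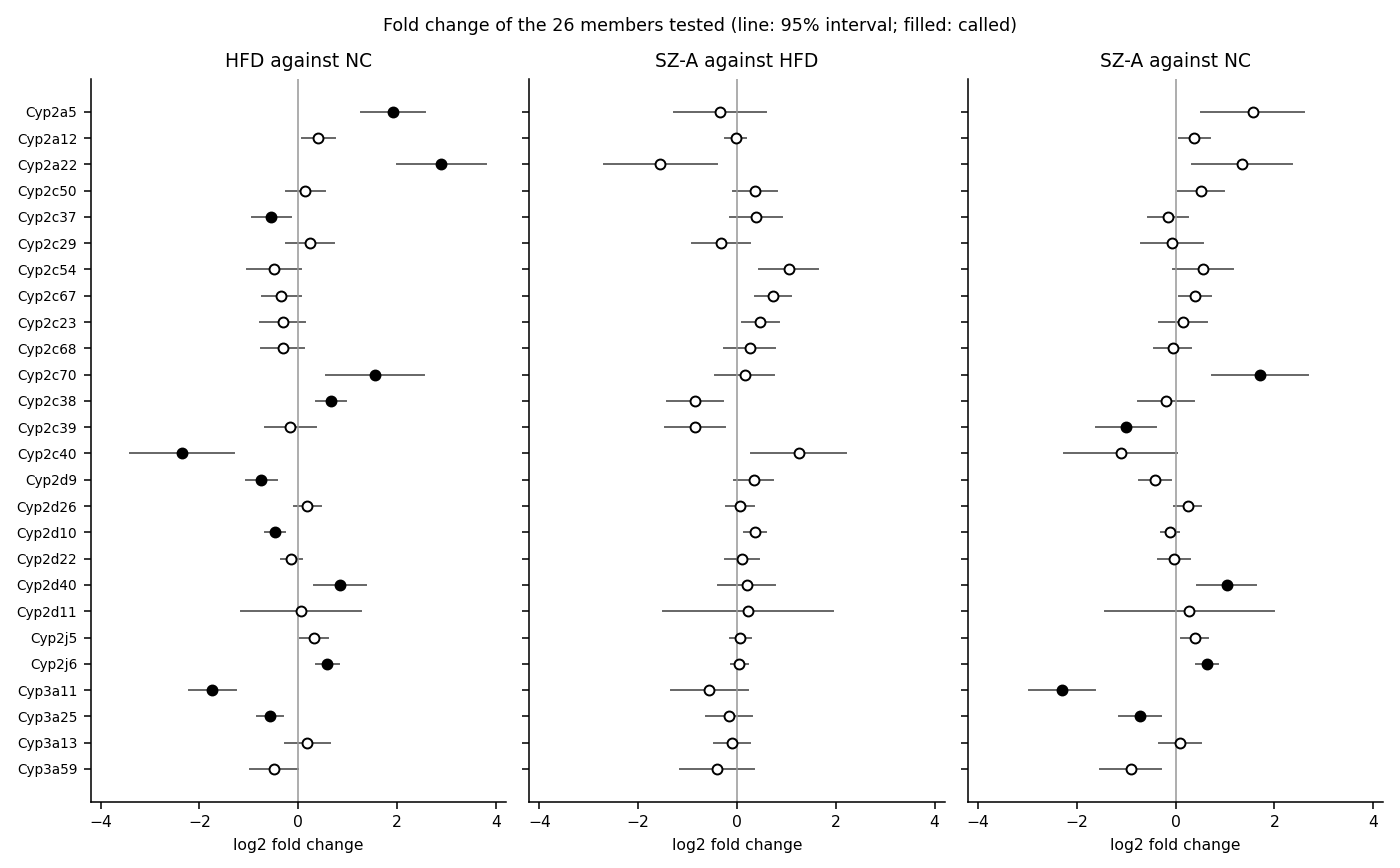
Log2 fold change (horizontal axes) of the 26 members tested, by subfamily and mean level from top to bottom, in the 3 comparisons. Lines are 95% intervals and filled points are called. In SZ-A against HFD no point is filled, and Cyp3a11 and Cyp3a25 are filled to the left of 0 in both comparisons with NC.

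In SZ-A against NC mice, 3 members were called higher and 3 lower, where 5.31% of all genes were called higher and 4.3% lower. Among the 24 members with at least 1 FPKM on average in both groups the counts were also 3 and 3. Higher were Cyp2c70, Cyp2d40 and Cyp2j6, and lower were Cyp3a11, Cyp3a25 and Cyp2c39, all with values given above. These counts moved to between 1 and 7 higher and between 1 and 4 lower when a mouse was left out, 3 and 2 without NC6 and 7 and 2 without SZ-A5. The calls of Cyp2c39, Cyp3a25, Cyp2c70 and Cyp2d40 were lost in 6 to 9 of the 12 fits, and those of Cyp3a11 and Cyp2j6 in none. Of the 6 genes, 5 were also called between HFD and NC mice, a comparison with which this one shares the NC mice, and Cyp2c39 was the other. The members called in HFD but not in SZ-A mice were Cyp2a5 (adjusted p = 0.0603), Cyp2a22 (0.0889), Cyp2c37 (0.639), Cyp2c38 (0.698), Cyp2c40 (0.206), Cyp2d9 (0.102) and Cyp2d10 (0.39). Whether those changes differ is tested by the comparison of SZ-A with HFD mice, in which none of them was called.

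Mice of a group varied in these genes. The median coefficient of variation within a group was 21.2% over the tested members in NC mice, 25.4% in HFD mice and 29.6% in SZ-A mice, and 15.9%, 13.2% and 13.4% over all genes tested. Single mice account for many of the ends of the ranges. SZ-A5 was the lowest SZ-A mouse for 17 of the 26 members, NC5 the lowest NC mouse for 13, HFD1 the lowest HFD mouse for 13, and HFD5 the highest HFD mouse for 15. The factor between the library size used for the FPKM and the fragments on genes differed by group. It was 1.08 to 1.14 in 5 of the 6 HFD mice and 0.998 in HFD5. In NC mice it was 0.933 to 1.02, and in SZ-A mice, on the same diet as HFD mice, 0.972 to 1.05. Both comparisons with HFD mice carry this difference. With median-ratio scaling of the FPKM the members called between HFD and NC mice were again 6 higher and 6 lower. The same scaling again left 0 called between SZ-A and HFD mice. It was close to no change of scale, with 1088 genes called higher and 969 lower between HFD and NC mice, beside 1092 and 970. It is therefore no check on this difference. With each mouse's FPKM at a common sum the members were 8 higher and 5 lower. The part of single mice in the results was not tested beyond the values without them.

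The electron donors and haem enzymes that P450s depend on were described as well. All 17 genes of a list of partners and haem synthesis were tested. In HFD against NC mice 3 rose and 1 fell, where 10.7% of all genes were called higher and 9.49% lower. The median log2 fold change was 0.06, beside -0.03 over all genes. Those that rose were Hmox1, which breaks haem down, by 1.03 (adjusted p = 8e-05), Cyb5b by 0.63 and Cyb5a by 0.36, both forms of cytochrome b5. Ephx2, the epoxide hydrolase that acts on the fatty acid epoxides made by Cyp2c and Cyp2j enzymes, fell by 0.59 (adjusted p = 0.000466). The reductase Por was at 179 ± 70.4 FPKM in NC mice, 162 ± 38.3 in HFD mice and 179 ± 53.2 in SZ-A mice and was not called. Alas1, the rate-limiting enzyme of haem synthesis, had means of 85.4, 187 and 177 FPKM and was not called against NC (adjusted p = 0.0692 and 0.064). In SZ-A against NC mice Hmox1 rose by 0.87 and Alad, the next enzyme of haem synthesis, by 0.52. None of the 17 was called in SZ-A against HFD mice.

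Of 24 known regulators of P450 genes, 23 were tested, and in HFD against NC mice 3 rose and none fell. Over all genes, 10.7% were called higher and 9.49% lower. Nr1i3 (CAR) went from 7.14 ± 1.21 FPKM up to 9.26 ± 1.01 (0.38 on the log2 scale, adjusted p = 0.0326), and in SZ-A mice it was at 11.8 ± 2.78 (0.69 against NC, adjusted p = 0.0274). Nr1i2 (PXR), at 32.1, 28.4 and 36.0 FPKM, was not called in any comparison. Hnf4a, at 184, 153 and 174 FPKM, was not called either. The others that rose in HFD mice were Stat5a by 0.68 and the growth hormone receptor Ghr by 0.66, and in SZ-A against NC mice Cebpb rose by 0.57. In SZ-A against HFD mice none of the 23 was called.

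Markers of some cell types differed between HFD and NC mice, and those of others did not. Over all genes, 10.7% were called higher and 9.49% lower in that comparison. Summed FPKM of 6 hepatocyte markers was 37804 to 57238 in NC mice, 23528 to 41890 in HFD mice and 30332 to 53753 in SZ-A mice, and 3 of the 6 (Cps1, Apoa1 and Tat) fell in HFD against NC. Macrophage markers summed to 87.4 to 161 FPKM in NC mice, 180 to 239 in HFD mice and 137 to 193 in SZ-A mice, and 3 of 5 rose. In SZ-A against HFD mice 1 of the 5 was called lower. Stellate cell markers summed to 32.5 to 46.7, 36.0 to 82.1 and 32.8 to 48.8 FPKM, and 3 of 5 rose. Of these markers, Col1a1 lay at 0.433 to 1.23 FPKM in NC mice and passed the filter only through mice on the high-fat diet. None of the 4 endothelial or 3 red blood cell markers was called in HFD against NC. Of the 4 adipocyte markers only Cfd was tested, and it was called higher. The others were under the filter and did not share a direction. Adipoq reached at most 0.618 FPKM and Plin1 0.294, both in the chow mouse NC1. Lep was detected in HFD4 alone, at 0.225 FPKM. Cholangiocyte markers, 1 of 4 tested and not called in HFD against NC, summed to 2.89 to 3.94, 2.15 to 3.26 and 1.87 to 12.3 FPKM. SZ-A5 held the highest Krt19 of all mice, 8.45 FPKM, where the next, NC2, had 0.989. The part of these shifts, and of those in SZ-A5, in the P450 results was not tested. Kidney and gut also express some of these P450s. Of 3 kidney tubule markers, Kap was 0 in every mouse, and Umod and Slc34a1 reached 0.0621 and 0.0108 FPKM. Of 4 gut markers, Cdx2 reached 0.0244 FPKM and Vil1 0.435 (in SZ-A5), while Lgals4 ran from 1.91 to 7.84 and Fabp2 from 94.6 to 159. The 4 gut markers summed to 104 to 148 FPKM in NC mice, 97.7 to 160.3 in HFD mice and 120.3 to 165 in SZ-A mice, and their part in the results was not tested.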

How the data were processed

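Liver RNA of the 18 mice was poly-A-selected and sequenced as paired-end reads on an Illumina NovaSeq. The submitters' processing notes name HISAT2 2.0.5, featureCounts 1.5.0-p3 and the build mm10 (GRCm38). The values are FPKM as deposited by the authors, in 1 table with gene length, position and biotype and no filter on low values. FPKM times gene length gave whole fragments for 100% of the values, within 0.05 of a fragment, from which the depth was worked back. The authors' own test on counts was not run, and voom on these fragments was the one test on counts.

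The test was limma 3.58.1 (lmFit, then eBayes allowing a trend with intensity) in R 4.3.3 on log2(FPKM + 0.1). It took the genes whose FPKM averaged at least 1, each comparison on its own 2 groups without covariates. Fold changes are on this scale, which understates changes of low genes. P-values were adjusted by Benjamini-Hochberg over the 10216 genes. The script was checked on simulated data. Alternatives were pseudocounts of 1 and 0.01, no filter and a mean of at least 5, a common sum or median-ratio scaling, 1 fit over all 18 mice, eBayes without trend, sample weights, voom on fragments, a replicate block, other call rules and leaving out each mouse. Sequences came from RefSeq promoters and GENCODE transcripts. The rest used Python 3.11.15, numpy 2.4.6, pandas 2.3.3 and, for figures, matplotlib 3.10.9.

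The named genes are up to 10 called members per comparison with the smallest adjusted p, the 3 members of each subfamily with the highest mean, the 2 with the largest change per comparison, called genes of the lists, and Por, Alas1, Nr1i2, Nr1i3 and Hnf4a. Other members were named after their values were seen, as part of the account of all 42. The members and the gene lists were chosen with earlier results of these data known.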

Additional observations from a re-analysis of the deposited data

Results flagged for a closer look

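In 3 of the 93 sets of 6 values examined, 1 mouse stood apart from the rest of its group by Dixon's criterion, which chance exceeds in about 1 of 20 sets. Cyp2c70 in HFD mice was 116.99 FPKM in HFD5, where the next highest HFD mouse had 58.0. Cyp2d11 in HFD mice was 3.25 FPKM in HFD6, with the others at 1.15 or less. Summed FPKM of the Cyp2d genes in NC mice was 1559.65 in NC5, the lowest of the group, beside a group median of 1864.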

How the results depend on the processing

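No log2 fold change of the 18 named gene and comparison pairs changed sign in 409 alternative values, and 43 lost the call. In HFD against NC mice the members called higher were 4 to 6 and those lower 5 to 7 when a mouse was left out, and at a fold change over 1.5 the lower ones were 3. With sample weights they were 5 and 9. Without a filter 38 members were tested, and 6 were called higher and 7 lower, beside 1117 and 781 of 27266 genes. Cyp2c37, Cyp2c70 and Cyp2d40 were no longer called there, so members under the filter were among those called. In SZ-A against HFD mice 2 members were higher with sample weights and 0 to 1 with a mouse left out (1 without HFD5 or SZ-A5). In SZ-A against NC mice the members higher were 1 without a filter, 5 with all 18 mice in 1 fit, 7 with sample weights and 1 to 7 with a mouse left out (1 without SZ-A1 or SZ-A3, 7 without SZ-A5). Those lower were 1 without a filter, 5 with sample weights and 1 to 4 with a mouse left out (1 without NC1, NC2, NC3, NC5, SZ-A1, SZ-A3 or SZ-A6). The causes were not tested. Without a filter, 27266 genes entered both the adjustment and the variance estimates that limma shares between genes. Depth limits the members under the filter, where a mouse holds few fragments.

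The replicate numbers did not pair the mice: correlations of same-numbered mice were -0.117 to 0.292. With a replicate block, 6 members were called higher and 5 lower in HFD against NC, 0 in SZ-A against HFD, and 6 and 3 in SZ-A against NC mice.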

Other observations

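Other P450 genes, outside the 5 subfamilies, were measured in the same mice, with 31 of 58 tested. In HFD against NC mice 4 rose and 10 fell, beside 10.7% and 9.49% of all genes. In SZ-A against NC mice 2 rose and 7 fell, beside 5.31% and 4.3% of all genes. The fatty acid hydroxylases of the Cyp4a group were among those that fell: Cyp4a14 from 3017 ± 1173 FPKM in NC to 1151 ± 358 in HFD mice (log2 fold change -1.35, adjusted p = 0.00512) and Cyp4a10 from 1747 ± 363 to 866 ± 136 (-1.0, adjusted p = 0.000855). Cyp8b1, the enzyme that adds the hydroxyl group of cholic acid, went from 532 ± 64.4 to 172 ± 66.4 FPKM (-1.71, adjusted p = 0.00025). Cyp2b9, a P450 of female liver, went from 0.28 ± 0.311 to 88.2 ± 57.2 FPKM in HFD mice (adjusted p = 1.25e-05) and was at 43.1 ± 34.0 in SZ-A mice. Like Cyp2b13, it passed the filter on low values only through mice on the high-fat diet.

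Genes that differ between the sexes in mouse liver were listed as well, and all mice here were male. Of 12 male-biased genes outside the families, 1 rose and 3 fell in HFD against NC mice, Elovl3 and Serpina1e being 2 of the latter at -1.83 and -2.41 on the log2 scale. Of 14 female-biased genes, 7 were tested, 3 rose and 1 fell. Among those tested, Cyp2b9 and Cyp2b13 passed the filter on low values only through mice on the high-fat diet. In NC mice they reached at most 0.879 and 0.0565 FPKM. Over all genes, 10.7% were called higher and 9.49% lower in HFD against NC mice. In SZ-A against HFD mice none of these genes was called. At an unadjusted p under 0.05, 5 of the 12 male-biased genes were higher and 0 lower, and 0 of the 7 female-biased genes tested passed. Over all genes these shares were 8.74% higher and 6.09% lower. HFD mice enter this comparison and the one with NC, so the signs of the 2 are not independent.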
